A study of Saccharomyces cerevisiae with 12 samples.

Results

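The cell wall mannoprotein genes examined here were 9 of the 6002 nuclear coding genes of budding yeast, taken by name from a list of structural cell wall proteins: CCW12, CWP1, CWP2, TIR1, SED1, PIR1, PIR3, HSP150 and CIS3. The question was where peaks of Scc2 lay at these genes, over the coding span or upstream of it, in cultures with auxin and in cultures without it. Scc2 acts with Scc4 to load cohesin, the ring complex that holds sister chromatids together. It carried 13 Myc epitopes (SCC2-13MYC) and was mapped by chromatin immunoprecipitation and sequencing with an antibody to Myc. All cells were MATa, of the W303 background, and also carried MED14-AID*-6FLAG, an auxin-inducible degron on the Mediator scaffold subunit Med14, and the plant F-box gene OsTIR1 driven by the ADH1 promoter. The auxin cultures received 1 mM auxin and the no-auxin cultures none, by their titles and treatment labels. The labels' protocol text describes auxin for every sample, so the grouping rests on titles and treatment labels. Cells were held in alpha-factor for a further 1.5 hours and then for 2 hours in nocodazole, which arrests cells in mitosis. All groups share this single strain genotype, so effects of auxin itself and of Med14 loss cannot be told apart, and no untagged strain was used here. There were 3 auxin and 3 no-auxin peak lists, and the protocol describes a culture for each replicate.

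Mannoproteins form the outer layer of the yeast cell wall, over a network of glucan. They reach it through the secretory pathway, where they are heavily glycosylated. Some are joined to the wall through a remnant of a GPI anchor, a lipid anchor added in the endoplasmic reticulum; CCW12, CWP1, CWP2, TIR1 and SED1 encode proteins of this kind. Others, the PIR proteins (proteins with internal repeats), are bound directly to glucan; PIR1, PIR3, HSP150 and CIS3 encode these. Cohesin in budding yeast is known to gather at centromeres and between convergent genes, and Scc2 is often found at strongly transcribed genes.

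A peak list gives places where the authors' caller found enrichment, not an amount of Scc2. The lists held 940, 1265 and 1510 nuclear peaks with auxin and 2050, 2046 and 1438 without auxin. Sequencing depth is unknown, and the first auxin list is the shortest. The median fold enrichment of the caller was 3.92, 2.82 and 2.56 with auxin and 1.68, 1.66 and 2.53 without auxin. Folds are therefore not on the same scale in all lists. Peaks covered 5.64 ± 1.78% of the coding span of an average coding gene with auxin and 12.1 ± 2.11% without auxin (SD, n = 3 lists each). Below, coverage is the percentage of a window that lies under peaks. The windows are the annotated coding span, here called the body, the 1000 bp before the start codon, and the 500 bp after the coding end. All coordinates are on sacCer3.

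Without auxin, Scc2 peaks at most of these genes lay on the body, and at CCW12, SED1 and HSP150, which face a convergent neighbour, they ran on past the coding end. With auxin, 5 of the 9 genes had a peak whose summit lay 291 to 612 bp upstream of the start codon. Counting a peak with 1 base or more in the upstream window, 4, 5 and 5 of the 9 genes had one with auxin and 3, 2 and 4 without auxin. The no-auxin counts include body peaks whose edge reached the window. Of all 6002 coding genes, 857, 1170 and 1443 had an upstream peak with auxin and 1406, 1353 and 1160 without auxin. Summits fell upstream at 4, 5 and 5 of the 9 genes with auxin and at 0, 0 and 2 of them without auxin. Over all coding genes, summits fell in the upstream window of 688, 957 and 1170 genes with auxin and of 939, 900 and 819 genes without auxin. Body peaks were present at 1, 6 and 8 of the 9 genes with auxin and at 6, 6 and 7 without auxin, so the groups overlapped. Over all coding genes, body peaks were present at 476, 742 and 910 genes with auxin and at 1495, 1502 and 1019 without auxin, where the groups did not overlap. The only gene with a body peak in the first auxin list was CCW12. Without that list, the mean number of genes with a body peak was higher with auxin by 0.667, whereas over all lists the difference, auxin minus no auxin, was -1.33.

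**Figure D1:**
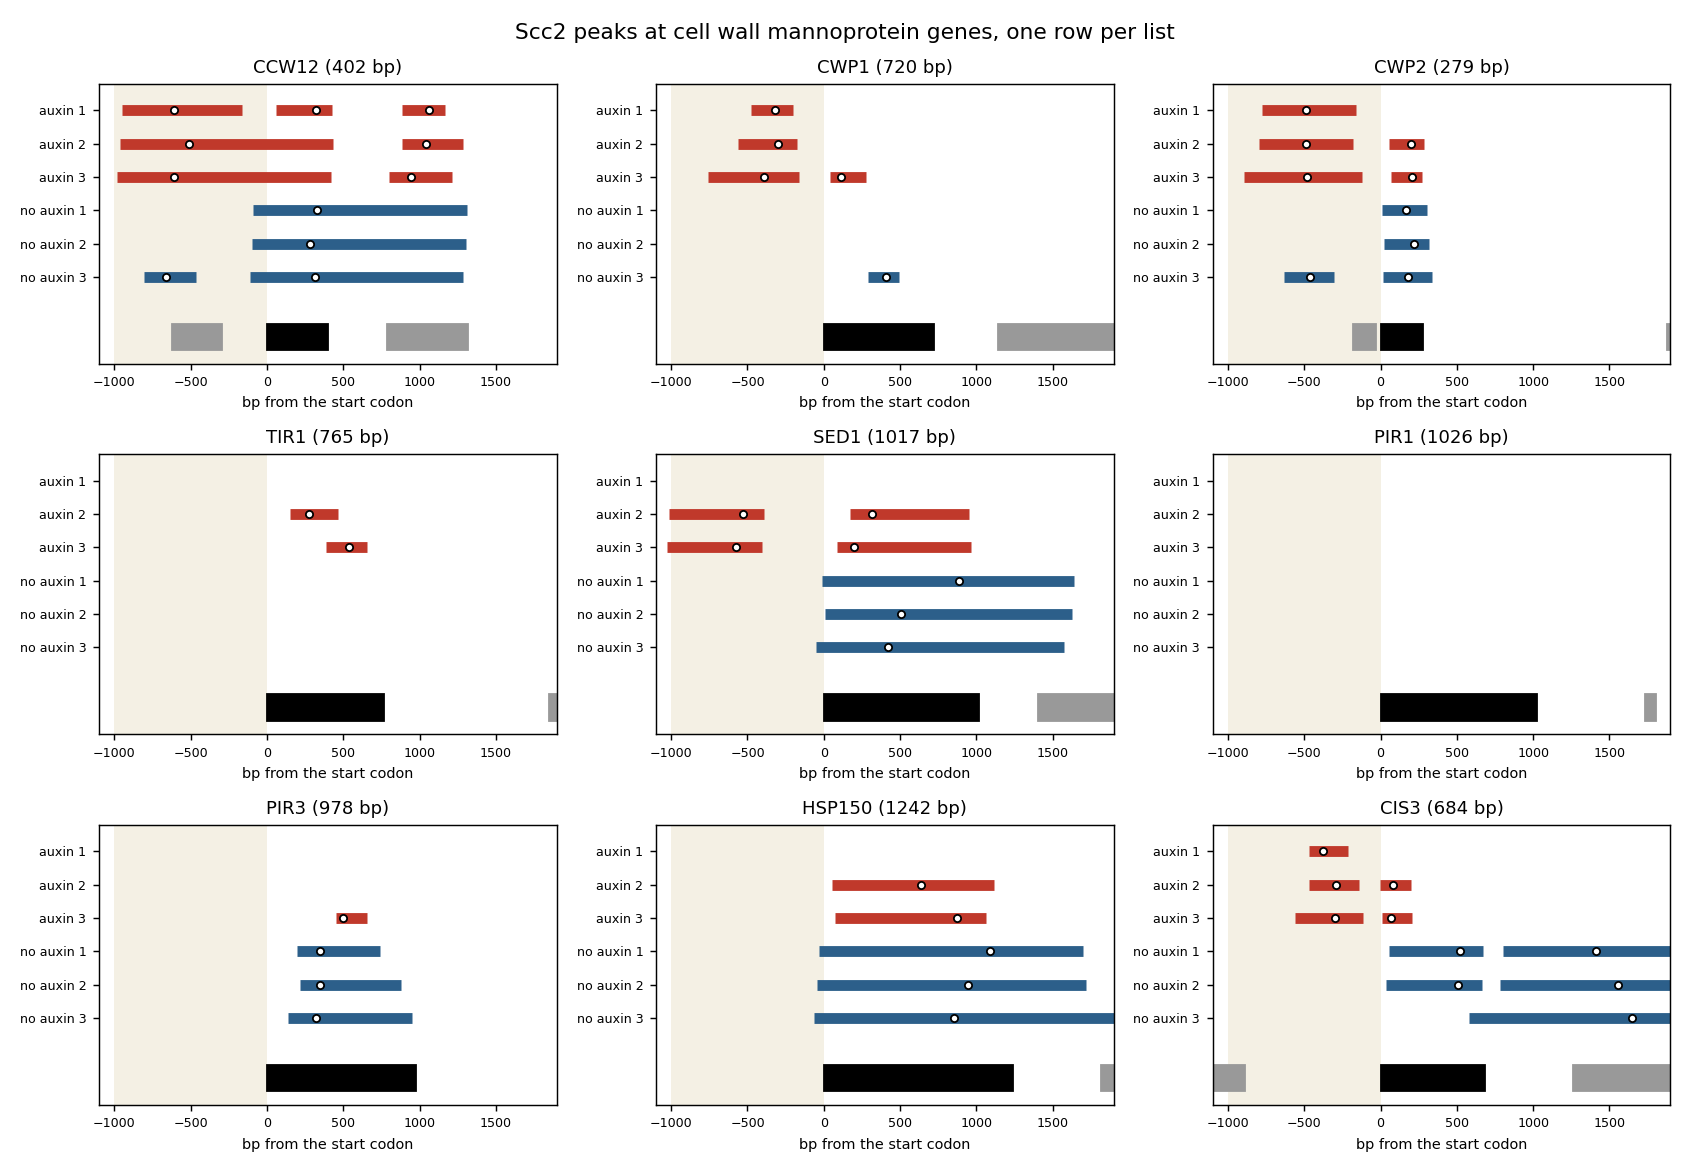
Scc2 peaks at the 9 genes against distance from the start codon in bp, read in the direction of transcription. Each row is 1 list, auxin in red above no auxin in blue; bars are peaks that touch the gene, its 1000 bp upstream (shaded) or 500 bp downstream; circles are summits; the black box is the coding span and grey boxes are the nearest annotated gene on either side. Red bars lie in the shaded area at CCW12, CWP1, CWP2, SED1 and CIS3, and blue bars run past the black box at CCW12, SED1 and HSP150.

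Averaged over the 9 genes, upstream coverage was 21.6, 32.2 and 37.7% in the auxin lists and 1.48, 1.54 and 9.98% in the no-auxin lists. The groups did not overlap. For all coding genes the mean upstream coverage was 7.82 ± 2.48% with auxin and 8.16 ± 0.550% without auxin (SD, n = 3 lists each). Mean body coverage of the 9 genes was 9.40, 45.9 and 50.7% with auxin and 60.3, 61.3 and 58.0% without auxin. Every auxin list was below every no-auxin list, but the first auxin list weighed heavily: the difference was -24.5 percentage points with it and -11.6 points without it. The profile along the genes shows the difference by position, given here where each group's mean over the 9 genes was highest, a choice made from these values. At 440 bp upstream of the start codon, 51.9% of the 9 genes lay under a peak with auxin and 3.70% without auxin (means of 3 lists), against 10.1% and 8.48% of all coding genes. At 300 bp past the start codon it was 29.6% with auxin and 66.7% without auxin for the 9 genes. For all coding genes it was 6.16% and 11.1%. This position lies past the coding end of CWP2, which is 279 bp long.

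**Figure D2:**
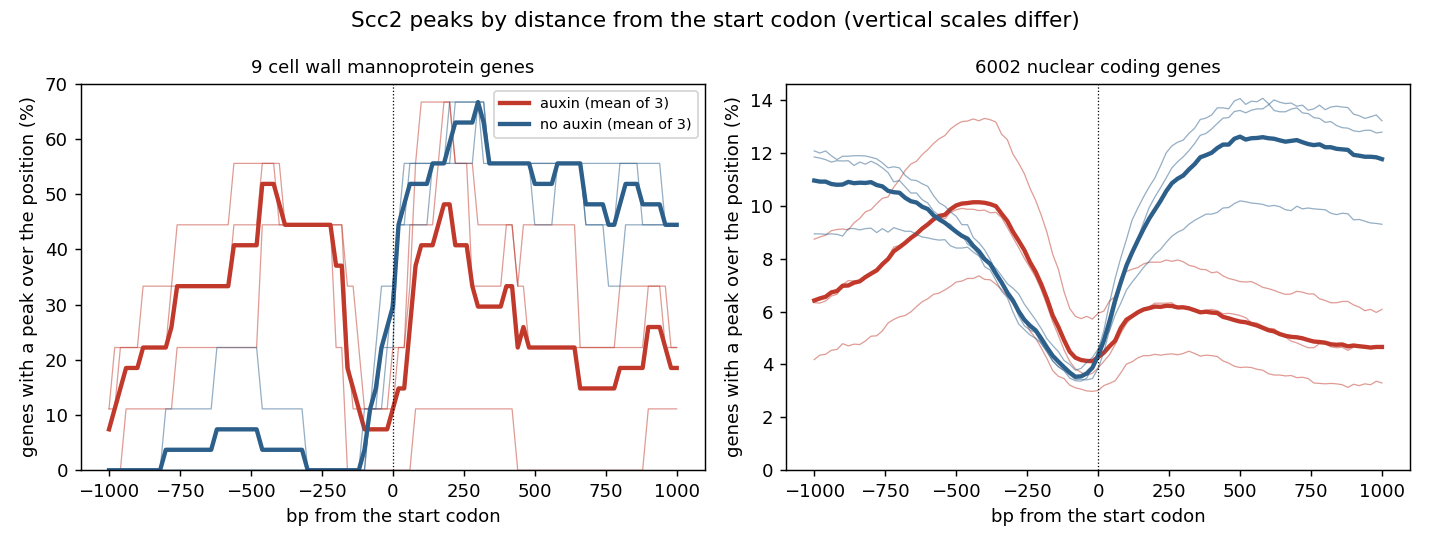
Percentage of genes with a peak over each position, from 1000 bp before to 1000 bp after the start codon, for the 9 genes (left) and all 6002 nuclear coding genes (right, on a smaller vertical scale). Thin lines are lists and thick lines are means of 3; auxin is red and no auxin blue. Among the 9 genes the red mean reaches 51.9% upstream and the blue mean 66.7% past the start codon. In all coding genes the red mean is also highest upstream and the blue mean past the start codon, at lower levels.

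For single genes, mean coverage was compared by an exact permutation test, two-sided, whose smallest p with 3 lists against 3 is 0.1. No gene can therefore pass 0.05, and no coding gene had a Benjamini-Hochberg adjusted p below 0.05 over 6002 genes in any window. Genes are described instead by whether the 2 groups of lists overlap. Body coverage was lower in every auxin list than in any no-auxin list at 4 of the 9 genes (CWP2, SED1, PIR3 and HSP150), against 9.98% of all coding genes and 30.1% of those with a body peak in at least 1 list. Of the 9 genes, 8 had such a peak. Upstream coverage was higher in every auxin list at 4 of the 9 (CCW12, CWP1, CWP2 and CIS3), against 5.31% of all coding genes and 14.9% of those with an upstream peak in at least 1 list. CWP2 met both conditions, as did 1.17% of coding genes. Of the 9 genes, 6 had an upstream peak in at least 1 list. At CWP1 and CIS3 only auxin lists had one, so requiring such a peak favours a higher upstream value with auxin.

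The difference between body and upstream coverage was lower in every auxin list at 7 of the 9 genes, all but TIR1 and PIR1. The same held for 13.1% of coding genes, 26.7% of those with a body or upstream peak in at least 1 list, and 65.9% of those with a body peak in all 3 no-auxin lists. Among the 6 of the 9 genes with a body peak in all 3 no-auxin lists it held for 6, and it was also the usual case among such genes. That filter uses the no-auxin body values being compared. It favours a lower difference with auxin, so the count of 6 is no support. Upstream coverage was higher in every auxin list at 3 of these 6 and at 11.6% of the 902 coding genes of that kind. The median difference, auxin minus no auxin, over the 9 genes was -43.7 percentage points in the body and 34.5 points upstream, while the median over all coding genes was 0 in both. That 0 is set by the 4043 and 3871 of 6002 coding genes with equal values in both groups, most of them uncovered. The mean difference was -24.5 points in the body and 26.2 points upstream over the 9 genes, and -6.44 and -0.332 points over all coding genes.

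**Figure D3:**
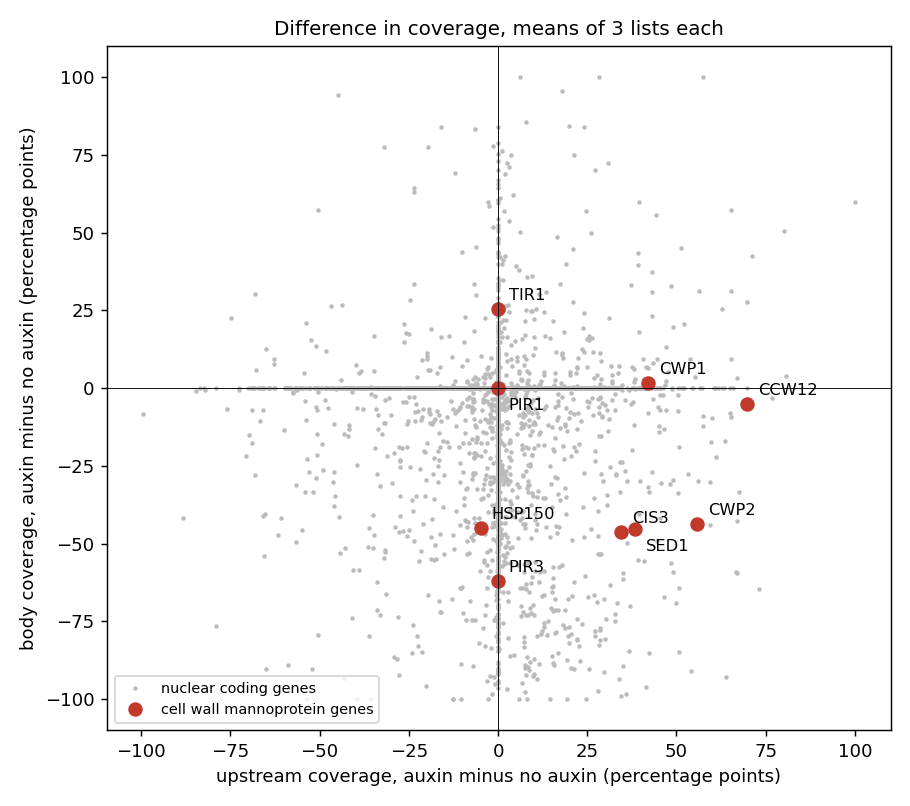
Difference in body coverage (vertical axis) against difference in upstream coverage (horizontal axis), auxin minus no auxin, in percentage points of the window, means of 3 lists each. Grey points are the nuclear coding genes and red points the 9 cell wall genes. CWP2, SED1 and CIS3 lie low and to the right, CCW12 and CWP1 to the right near the horizontal line, PIR3 and HSP150 low near the vertical line, TIR1 above, and PIR1 at the origin.

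CCW12 encodes a small and abundant GPI-type mannoprotein needed for a stable wall. The gene (YLR110C) occupies chromosome XII, 369697 to 370098, on the reverse strand. Its upstream window was 79.1, 96.2 and 98.0% covered with auxin and 9.0, 9.5 and 45.5% covered without auxin. Every auxin list was above every no-auxin list (difference 69.8 points, exact permutation p = 0.1, adjusted 0.904). Its body was under peaks in all lists, at 84.6, 100 and 100% with auxin and 100% in each no-auxin list. The groups differed in where the summit of the highest peak lay. With auxin, the summit of the highest peak lay 612, 510 and 612 bp upstream of the start codon. Without auxin it lay inside the coding span, 325, 285 and 314 bp past the start. By the fold enrichment of the authors' peak caller, those auxin peaks ranked 66 of 940, 33 of 1265 and 28 of 1510 in their lists, and those no-auxin peaks 31 of 2050, 34 of 2046 and 12 of 1438.

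The CCW12 upstream window is not free of annotation: 641 of its 1000 bp fall in the annotated coding spans YLR111W and YLR112W. The highest summit of each auxin list fell inside the YLR111W span, at 370391 to 370723. The YLR111W body was covered at 100% in each auxin list and at 0, 0 and 48.65% without auxin. Counting only bases outside coding spans, the difference in the CCW12 upstream window was 51.4 points. The third no-auxin list held a separate small peak there, with its summit 662 bp upstream. Downstream of CCW12 lies AHP1, a thioredoxin peroxidase gene that converges on it across a 385 bp spacer. Without auxin a single peak ran from just upstream of CCW12 across the spacer into AHP1 in each list, with widths of 1403, 1399 and 1398 bp. With auxin, AHP1 had a separate peak in each list. The AHP1 body was covered at 53.3, 75.9 and 78.3% with auxin and 99.1, 97.4 and 94.4% without auxin, and its own upstream window at 40.1, 52.0 and 67.4% with auxin and 0% in each no-auxin list. In AHP1, unlike CCW12, body coverage was also lower in every auxin list. The 500 bp after CCW12 were covered at 9.20, 10.0 and 24.8% with auxin, against 100% in each no-auxin list.

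CWP1 and CWP2 encode GPI-type mannoproteins of the wall and lie in tandem on chromosome XI, 1600 bp apart, CWP2 (YKL096W-A) at 259253 to 259531 and CWP1 (YKL096W) at 261132 to 261851, both on the forward strand. In each auxin list CWP2 had the upstream peak with the highest fold of the 9 genes. These peaks covered 61.6, 61.6 and 76.9% of its upstream window with auxin and 0, 0 and 32.8% without auxin (difference 55.8 points, exact permutation p = 0.1, adjusted 0.904). The summits with auxin lay 491, 492 and 481 bp upstream, within 11 bp of each other. By fold, 16.6, 11 and 9.19, they ranked 22 of 940, 18 of 1265 and 21 of 1510. The third no-auxin list had a peak with its summit at a similar distance, 462 bp, with a fold of 3.16, ranked 522 of 1438. Part of the window, 561 bp, lies in the annotated coding spans YKL097C and YKL096C-B, and outside them the difference was 50.0 points.

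The CWP2 body was covered at 0, 79.9 and 73.5% with auxin and 96.4, 92.8 and 95.3% without auxin (difference -43.7 points, exact permutation p = 0.1, adjusted 0.862). Each no-auxin list thus had a peak on this 279 bp gene, as did all auxin lists but the first. Without the first auxin list the difference was -18.2 points. CWP1 differed in that its body was largely bare in both groups. It was covered at 0, 0 and 32.6% with auxin and 0, 0 and 28.2% without auxin, which overlap. Its upstream window was covered at 27.5, 38.6 and 60% with auxin and at 0% in each no-auxin list (difference 42.0 points, exact permutation p = 0.1, adjusted 0.904). The CWP1 summits lay 318, 302 and 390 bp upstream, between the tandem genes.

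SED1, on chromosome IV at 600793 to 601809 on the forward strand (YDR077W), encodes an abundant GPI-type glycoprotein of the wall that is known for its role in stationary phase. Its body was covered at 0, 77.3 and 85.9% with auxin and at 100, 99.2 and 100% without auxin (difference -45.3 points, exact permutation p = 0.1, adjusted 0.862). Upstream coverage was 0, 60.8 and 59.9% with auxin and 0.900, 0 and 4.80% without auxin. The first auxin list had no peak at SED1 at all, so the groups overlapped upstream (exact permutation p = 0.4, adjusted 1). Where auxin lists had peaks, they were in pairs, with a summit 529 and 575 bp upstream and another 319 and 200 bp into the gene. Without auxin, SED1 had a single peak of 1648, 1622 and 1622 bp that began within 48 bp of the start codon and reached 622, 613 and 557 bp past the coding end, into the convergent neighbour SHU2, which encodes a recombination factor. The 500 bp after SED1 were bare in each auxin list and fully covered in each no-auxin list. Without the first auxin list the differences were -18.1 points in the body and 58.5 points upstream. The upstream difference was 10.0 points with a window of 500 bp, and the body difference was -74.0 points with lists of equal length.

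TIR1 was the only gene of the 9 with peaks in auxin lists alone. It encodes a GPI-type mannoprotein known to be induced by cold and by lack of oxygen, and lies on chromosome V at 175248 to 176012 on the forward strand (YER011W). Its body was covered at 0, 40.9 and 35.0% with auxin and at 0% in each no-auxin list. The groups overlapped at 0 (exact permutation p = 0.4, adjusted 1). Its upstream window was bare in all 6 lists. These TIR1 peaks were weak, with folds of 2.28 and 2.18, and their summits lay 274 and 540 bp into the gene, apart from each other. Neither was among the 940 peaks kept in each list when lists were cut to equal length, which left a difference of 0. The nearest tRNA gene, 1086 bp away, had a peak in all 6 lists, which did not reach TIR1.

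HSP150 and CIS3 encode PIR proteins, the first also known as a secreted heat-shock protein, and converge on chromosome X across a 574 bp spacer. HSP150 (YJL159W, forward) occupies 120449 to 121690 and CIS3 (YJL158C, reverse) 122265 to 122948. Without auxin, HSP150 carried one of the strongest peaks in each list by fold, ranked 17 of 2050, 8 of 2046 and 20 of 1438. It covered the whole HSP150 body in each list and ran 455, 476 and 678 bp past its coding end, so that in the third list it entered CIS3. With auxin the HSP150 body was covered at 0, 85.4 and 79.6%, against 100% in each no-auxin list (difference -45.0 points, exact permutation p = 0.1, adjusted 0.862). The auxin peaks stopped short of the coding end, and the 500 bp after HSP150 were bare in each auxin list and covered at 91.0, 95.2 and 100% without auxin. Without the first auxin list, which had no HSP150 peak, the body difference was -17.5 points. No upstream peak of its own was found at HSP150. The no-auxin peaks reached 34, 44 and 67 bp before the start codon.

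CIS3 had its own upstream peaks with auxin, which covered 26.0, 32.7 and 44.8% of the window, against 0% in each no-auxin list (difference 34.5 points, exact permutation p = 0.1, adjusted 0.904). Their summits lay 375, 291 and 302 bp before the start codon, in the spacer towards FAR1, a gene for a cell-cycle inhibitor of the pheromone response. The CIS3 body was covered at 0, 29.5 and 29.2% with auxin and 90.2, 92.1 and 15.2% without auxin. The third no-auxin list lay within the auxin range, so the groups overlapped (difference -46.2 points, exact permutation p = 0.3, adjusted 1). Without that list the difference was -71.6 points. In the third no-auxin list the CIS3 coverage came from the end of the HSP150 peak. The 2 auxin lists with a CIS3 body peak had it end within the first 208 bp of the gene, whereas the first and second no-auxin lists had it along the gene, with summits 520 and 506 bp past the start.

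PIR1 and PIR3 are PIR genes that diverge on chromosome XI from a 1581 bp spacer, PIR1 (YKL164C, reverse) at 141794 to 142819 and PIR3 (YKL163W, forward) at 144401 to 145378. Their upstream windows share 419 bp, and no list had a peak in either window. PIR3 was covered at 0, 0 and 20.5% of its body with auxin and 55.9, 67.9 and 82.9% without auxin (difference -62.1 points, exact permutation p = 0.1, adjusted 0.862), with no overlap between groups. Summits without auxin lay 347, 348 and 319 bp into PIR3. These peaks were modest by fold, at 1.60, 1.42 and 2.55, and ranked 1254 of 2050, 1875 of 2046 and 708 of 1438. Keeping only peaks with a −log10 q of at least 5, the body difference at PIR3 was -46.3 points, and with lists of equal length it was -27.6 points. In both settings at least 1 no-auxin list and every auxin list had no PIR3 peak, so the groups overlapped and PIR3 no longer counted among the genes lower with auxin. PIR1, its divergent partner and relative, had no peak over the body, upstream or downstream in any of the 6 lists. The nearest tRNA gene, 704 bp from PIR1, had a peak in all 6 lists. An uncovered gene is one where no peak was called, which does not show that Scc2 was absent.

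**Figure D4:**
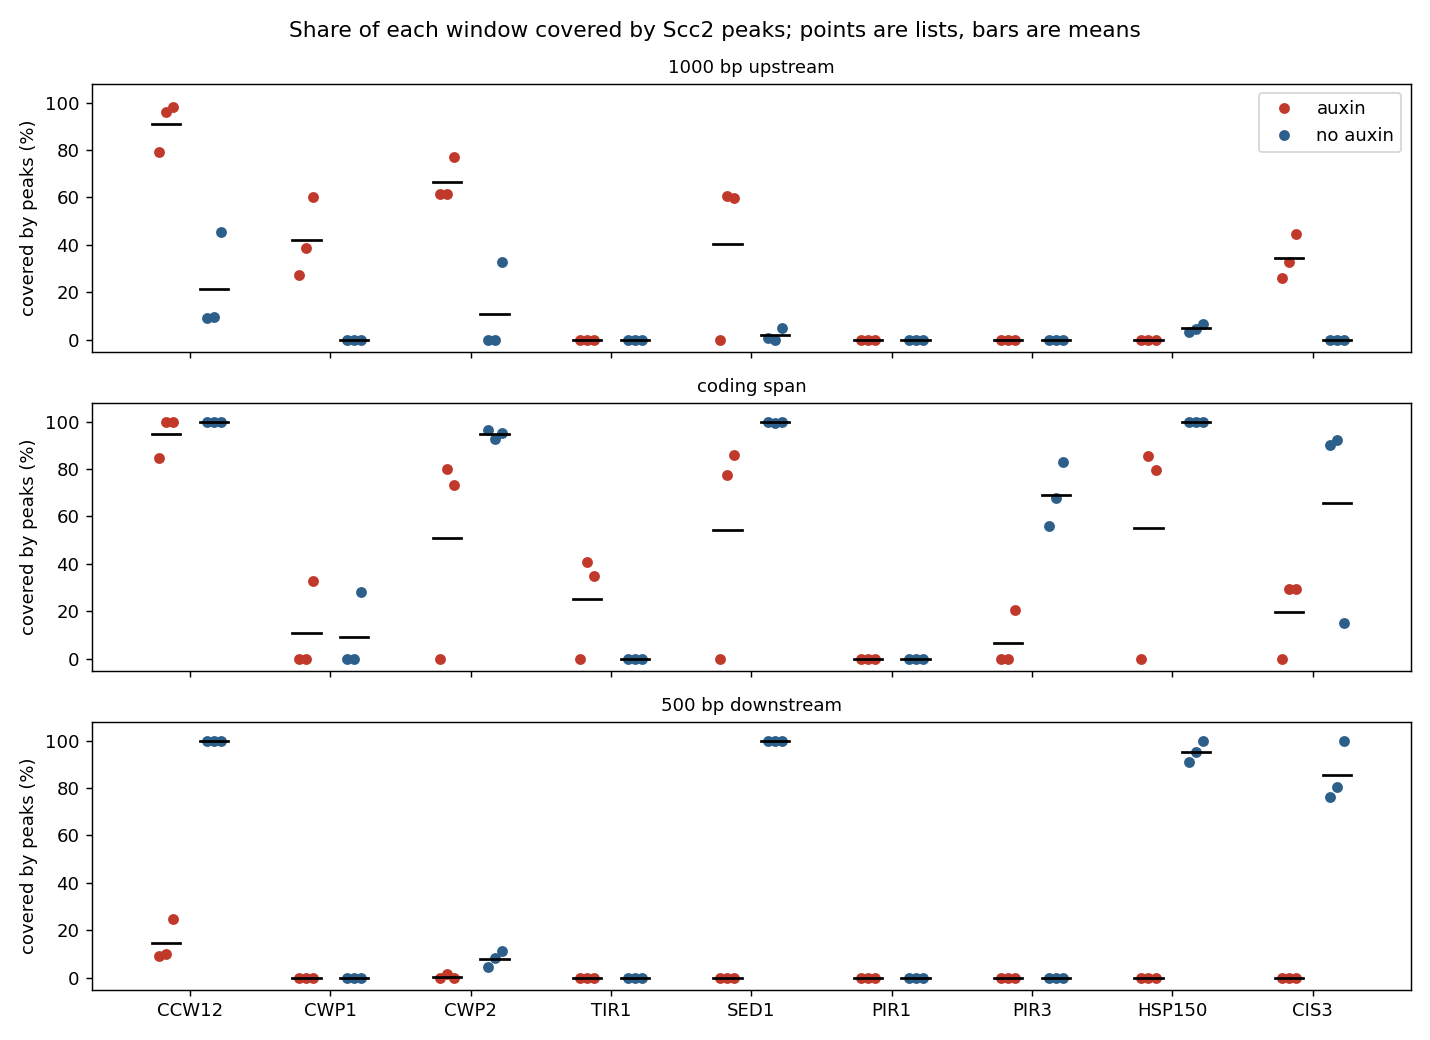
Percentage of the upstream window (top), the coding span (middle) and the downstream window (bottom) covered by peaks at each gene. Points are lists, auxin in red left of no auxin in blue, and bars are means of 3 lists. Red points stand above blue points upstream at CCW12, CWP1, CWP2 and CIS3; downstream, blue points are at or near 100% at CCW12 and SED1 and above 76% at HSP150 and CIS3, where red points lie below 25%.

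Internal repeats bear on how far these peaks can be resolved. PIR proteins are named for tandem copies of a short repeat, SED1 also carries repeats, and TIR1 has a serine- and alanine-rich stretch of low complexity. Reads from repeats or from related genes such as PIR1, PIR3 and HSP150 can align to more than 1 place, and the number of repeats can differ between W303 and the reference strain. The handling of such reads is not given in the sources used here, and no genome sequence was used, so alignability was not measured and its part in these results was not tested. As a description, each body was divided into 3 equal segments. The middle segment of HSP150 and of SED1 was fully covered in each list that had a body peak there. At PIR3 the middle segment was covered at 0, 0 and 60.4% with auxin and 100% in each no-auxin list, more than the first segment in each list with a peak. Body peaks at HSP150, SED1 and PIR3 thus lay over the middle segment, in full or in part. This was not particular to them. The middle segment was also fully covered at CCW12 in each list and at CWP2 in each list with a body peak. The middle segment of CIS3 was covered at 0% in each auxin list and at 100, 100 and 0% without auxin. Of PIR1, PIR3, HSP150 and CIS3, only PIR1 had no body peak. PIR5, the upstream neighbour of HSP150 and also a PIR gene, had no peak over the body, upstream or downstream in any list. Repeats were not located within the segments, so their effect on peak calling was not tested.

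Coverage past the coding end was lower in every auxin list at 5 of the 9 genes (CCW12, CWP2, SED1, HSP150 and CIS3), against 8.25% of all coding genes and 32.0% of those with a downstream peak in at least 1 list. The 5 were all of the 9 that had such a peak. At SED1, HSP150 and CIS3 only no-auxin lists had one. That filter therefore favours a lower value with auxin, so the count of 5 among such genes is no support. CCW12, SED1, HSP150 and CIS3 face a convergent neighbour across spacers of 385, 388, 574 and 574 bp, and HSP150 and CIS3 share 1 spacer and so count the same peaks. At CWP2, whose downstream neighbour is CWP1 in tandem, coverage was 0, 1.60 and 0% with auxin and 4.60, 8.40 and 11.4% without auxin, which is only the edge of the body peak.

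Other mannoprotein genes were mixed. Of 31 listed, among them flocculins, agglutinins and further TIR, DAN and PIR genes, body coverage was lower in every auxin list at 5 and higher at 3, against 9.98% and 1.62% of all coding genes. Upstream coverage was higher at 5 and lower at 1, against 5.31% and 5.75% of all coding genes. CCW14, an inner-layer GPI protein gene, had body coverage of 42.1, 44.6 and 58.9% with auxin and 84.9, 69.7 and 70.3% without auxin. HPF1, a haze-protective mannoprotein gene, had 8.40, 17.7 and 25.7% with auxin and 99.0, 97.6 and 79.7% without auxin. Neither gene's groups overlapped, and both had less of the body under peaks in each auxin list. HPF1, ECM33 and TIP1 were named for high body coverage without auxin, a choice that favours a lower value with auxin. CCW14 was named for high coverage in both groups. At 3 of the 31, ECM33, TIP1 and SRL1, body coverage was lower and upstream coverage higher in every auxin list, against 1.17% of all coding genes. SRL1, a mannoprotein gene named after its values were seen, had body coverage of 0, 32.7 and 0% with auxin and 71.1, 52.9 and 75.0% without auxin, and upstream coverage of 31.0, 45.1 and 47.0% with auxin and 0% in each no-auxin list. ECM33 and TIP1 encode GPI proteins. The ECM33 upstream window was covered at 24.6, 32.7 and 36.7% with auxin and 0% in each no-auxin list. The TIP1 body was covered at 0, 43.8 and 85.3% with auxin and 94.9, 88.6 and 94.9% without auxin. Unlike those of ECM33 and SRL1, its upstream window was partly covered without auxin, and the groups were only narrowly apart. It was covered at 43.9, 70.8 and 88.6% with auxin and 24.6, 27.8 and 42.8% without auxin. TIR3, FLO11 and FLO1 were the 3 that differed in the other direction, with more of the body under peaks in every auxin list. TIR3 and FLO11 were named for high body coverage with auxin, a choice that favours this direction. TIR3, for a mannoprotein made without oxygen, had body coverage of 34.1, 67.2 and 49.9% with auxin and 0% in each no-auxin list. FLO11, a flocculin gene, had 44.3, 45.1 and 44.9% with auxin and 23.6, 20.2 and 30.8% without auxin. FIT3, for a mannoprotein of iron uptake, overlapped, at 40.3, 80.2 and 79.7% with auxin and 80.0, 44.6 and 93.3% without auxin. FLO1, FLO5 and FLO9 are near-identical and repeat-rich, so their reads can be exchanged and their values are uncertain as separate observations.

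Of 15 genes of the cell wall integrity pathway, which signals wall damage through Rho1 and a MAP kinase cascade, 1 had lower body coverage in every auxin list and none had higher, against 9.98% and 1.62% of all coding genes. That gene was RHO1, which had mean body coverage of 0% with auxin and 37.8% without auxin (n = 3 lists each). Upstream coverage was higher in every auxin list at none of the 15 and lower at none, against 5.31% and 5.75% of all coding genes.

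The coding genes whose 12 values, body and upstream coverage in 6 lists, were closest to the median of the 9 genes were CYT1, MIR1 and RPL18B, with mean absolute differences of 5.81, 6.78 and 7.31 percentage points. CYT1 encodes a cytochrome subunit of respiratory complex III, MIR1 the mitochondrial phosphate carrier and RPL18B a ribosomal protein that has a near-identical copy elsewhere. CYT1 had body coverage of 0, 23.4 and 22.5% with auxin and 87.5, 88.3 and 84.7% without auxin, and upstream coverage of 0, 20.1 and 26.0% with auxin and 0% in each no-auxin list. RPL18B and TOS6, a mannoprotein gene of the longer list, share 1 upstream spacer and so had the same upstream values.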

How the data were processed

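Per the submitters' processing notes, Bowtie2 2.4.2 and MACS2 2.1.1.20160309 were run with the sacCer3 genome; what each tool did, the calling threshold and the control sample are not stated there. The authors deposited 1 peak list for each of the 6 immunoprecipitates, with positions and summits in base pairs, a fold enrichment (a ratio), −log10 p and −log10 q values, and a score that is 10 times −log10 q without decimals. No list belongs to the 6 total chromatin samples, which were not used.

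Genes came from a RefSeq table of assembly R64, and strand was read from systematic names. WSC1 and DAN3 were matched by synonym (SLG1 and PAU24 there). The 336 mitochondrial peaks were left out. A peak counted at a window with 1 base of overlap. Coverage was compared for each gene over 20 assignments with Benjamini-Hochberg adjustment over all 6002 coding genes (Python 3.11.15, numpy 2.4.6, pandas 2.3.3), and the code was tested on simulated data. Depth is unknown, so no counting interval was given.

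The 9 genes and the lists were chosen with earlier results of these data known. The text names all 9, the 3 most similar coding genes, and from the other mannoprotein genes the 4 with the highest mean body coverage in each group. Coding neighbours are also described, except RAD55, YER010C, YJU2 and YKL162C, which had no body peak in any list. FLO1, FLO5, FLO9, PIR5, SRL1, TOS6 and RHO1 were named after their values were seen. The downstream window, segments, profile and upstream-higher counts were added after seeing the data. Alternatives were a −log10 q of at least 5, lists of equal length, an overlap of at least 100 bp, summits, upstream windows of 500 bp or without other coding spans, no peaks within 250 bp of tRNA genes, each list left out, and a replicate block.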

Additional observations from a re-analysis of the deposited data

How the results depend on the processing

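The difference in upstream coverage over the 9 genes, auxin minus no auxin, was 22.6 to 30.6 percentage points, and that in body coverage -32.2 to -11.6 points. Neither was computed for the overlap and summit alternatives, nor body coverage for the other upstream windows. The number of genes with an upstream peak differed by 1.67 with 1 base of overlap and by 4.00 when a peak had to overlap by at least 100 bp or have its summit in the window, which drops the edges of body peaks. The body minus upstream difference was lower in every auxin list at 6 of the 9 genes with lists of equal length (940 peaks) or the stricter threshold, and at 7 otherwise. Upstream coverage was higher at 4, or at 5 without the first auxin list. Body coverage was lower at 3 to 5. A call needs every list to separate, so leaving out a list can keep or add calls but cannot remove one.

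Over all coding genes, 599 were lower in body coverage and 345 lower and 319 higher in upstream coverage. With equal lists 360 and 221 were lower. Upstream windows of 500 bp gave 172 lower and windows without other coding spans 166. Leaving out each list gave 605 to 980 lower in the body, 348 to 565 lower upstream and 330 to 599 higher upstream. As above, these counts could not fall below those with all lists. The highest values came without the third no-auxin list for lower genes and without the first auxin list for higher genes. For CWP1 the body difference was 1.48 points and ranged from -9.40 to 10.9 with each list left out, at -9.40 without the third auxin list and -3.22 without the first or the second no-auxin list. With upstream windows of 500 bp the upstream difference at CIS3 was 64.9 points, against 34.5 points with 1000 bp. The 3 settings named for CWP1 gave the only sign changes in the body, upstream and body minus upstream differences of the 9 genes under the alternatives run.

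With the replicate block, 626 genes were lower in body coverage, and the smallest paired p is 0.25. Deviations from group means of same-numbered lists correlated at -0.0975, 0.0065 and -0.0313. Those of lists with unlike numbers correlated at -0.0363 to 0.0819. These values cannot decide whether same-numbered lists share a culture, day or batch, which the labels do not say. Depth, which is unknown, limits what an uncovered window can show. The smallest p of 0.1 rests on 3 lists in each group.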
